A study of Homo sapiens with 2 samples.

Results

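The genes described here are the 5 lactate dehydrogenase genes LDHA, LDHB, LDHC, LDHD and LDHAL6A, the 3 lactate transporter genes SLC16A1, SLC16A3 and SLC16A7, and the genes of their membrane escorts, BSG and EMB. These 10 of 19866 protein-coding genes were taken by gene name, with no threshold on a measured value. Lactylation of lysine 18 of histone H3 (H3K18la) had been mapped by ChIP-seq, in which chromatin is precipitated with an antibody and its DNA sequenced, in the line H1299, which was derived from a non-small cell carcinoma of the human lung. The series comprises 1 library precipitated with an anti-H3K18la antibody and 1 library of input chromatin from the same line, with no other treatment named. The data are the list of 28695 broad peaks of the precipitated library on hg38. With 1 library per group there is no replicate spread and no test of any difference below, and the depth of the libraries is unknown.

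Lactate dehydrogenase interconverts pyruvate and lactate. The A subunit, abundant in skeletal muscle, favours lactate formation, the B subunit, abundant in heart, is associated with lactate use, LDHC is the sperm and testis form, LDHAL6A is an A-like gene also expressed in testis, and LDHD is an unrelated mitochondrial enzyme that acts on D-lactate. Monocarboxylate transporters of the SLC16 family carry lactate with a proton across the plasma membrane: SLC16A1 (MCT1) works in both directions, SLC16A3 (MCT4) is the exporter of glycolytic cells and SLC16A7 (MCT2) is a high-affinity importer. Basigin, the product of BSG, brings MCT1 and MCT4 to the membrane, and embigin, the product of EMB, does so for MCT2. Histone lactylation draws on lactate, and the proteins that these genes encode make, move or consume lactate, in the case of LDHD its D form.

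The promoter sequences printed here are a selection from the 14 member windows whose covered and uncovered start sites are compared below. The windows run from 250 bases before to 50 bases after a RefSeq start site (GRCh38.p14) and are written 5′ to 3′. Capitals mark every match on either strand to ACGTG (core of the hypoxia response element), CACGTG (E-box), GGGCGG (SP1 box), CCAAT (bound by NF-Y), TATAAA (a core promoter box), TGACGTCA (cyclic AMP response element) or TGAGTCA (AP-1 site). ACGTG lies within CACGTG, so that these matches overlap. The first LDHA window and those of LDHB, SLC16A3 and BSG were covered at their start sites by peaks, and the second LDHA window and that of LDHC were not.
LDHA, first start site (chr11:18394313-18394612, plus strand): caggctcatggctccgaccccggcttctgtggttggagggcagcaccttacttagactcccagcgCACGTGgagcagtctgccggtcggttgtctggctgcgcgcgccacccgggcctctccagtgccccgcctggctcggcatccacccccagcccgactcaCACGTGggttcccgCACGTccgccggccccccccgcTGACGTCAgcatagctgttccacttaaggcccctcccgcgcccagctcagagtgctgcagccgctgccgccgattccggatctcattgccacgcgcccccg
LDHA, second start site (chr11:18396101-18396400, plus strand): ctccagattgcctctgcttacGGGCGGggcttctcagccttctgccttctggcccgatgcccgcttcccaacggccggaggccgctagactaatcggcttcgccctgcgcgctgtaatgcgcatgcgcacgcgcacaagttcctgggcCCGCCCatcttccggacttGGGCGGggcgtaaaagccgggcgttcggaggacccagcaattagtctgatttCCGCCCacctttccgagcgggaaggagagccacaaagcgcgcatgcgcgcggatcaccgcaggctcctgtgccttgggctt
LDHC, start site (chr11:18412068-18412367, plus strand): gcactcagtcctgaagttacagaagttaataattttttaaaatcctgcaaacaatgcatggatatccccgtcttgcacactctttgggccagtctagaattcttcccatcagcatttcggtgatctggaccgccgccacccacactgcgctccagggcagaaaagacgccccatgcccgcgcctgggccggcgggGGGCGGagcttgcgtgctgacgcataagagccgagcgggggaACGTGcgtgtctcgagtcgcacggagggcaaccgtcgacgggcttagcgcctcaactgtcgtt
LDHB, start site (chr12:21657793-21658092, minus strand): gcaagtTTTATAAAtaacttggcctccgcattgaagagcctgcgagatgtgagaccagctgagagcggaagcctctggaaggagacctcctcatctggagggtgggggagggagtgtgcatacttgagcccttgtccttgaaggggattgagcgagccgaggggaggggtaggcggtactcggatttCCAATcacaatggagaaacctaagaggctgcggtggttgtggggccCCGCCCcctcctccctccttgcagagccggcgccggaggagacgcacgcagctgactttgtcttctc
SLC16A3, second start site (chr17:82228792-82229091, plus strand): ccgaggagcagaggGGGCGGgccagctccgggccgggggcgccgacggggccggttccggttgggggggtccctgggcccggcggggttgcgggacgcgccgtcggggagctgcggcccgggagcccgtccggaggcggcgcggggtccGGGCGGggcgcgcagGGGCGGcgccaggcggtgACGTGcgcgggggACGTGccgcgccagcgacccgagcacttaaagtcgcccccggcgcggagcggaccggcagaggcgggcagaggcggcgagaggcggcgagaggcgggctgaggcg
BSG, second start site (chr19:572346-572645, plus strand): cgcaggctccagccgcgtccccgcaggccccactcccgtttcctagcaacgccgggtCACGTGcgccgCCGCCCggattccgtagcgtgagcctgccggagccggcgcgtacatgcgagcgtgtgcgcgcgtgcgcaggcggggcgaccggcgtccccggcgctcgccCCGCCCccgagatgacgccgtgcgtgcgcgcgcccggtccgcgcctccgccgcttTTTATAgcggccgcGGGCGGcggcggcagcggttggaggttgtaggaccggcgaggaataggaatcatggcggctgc

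A peak lay within 1000 bp of an end of LDHA, LDHB, LDHD, SLC16A1, SLC16A3 and BSG, and of no end of LDHC, LDHAL6A, SLC16A7 and EMB. The 6 of 10 genes (60.0%, exact 95% binomial interval 26.2 to 87.8, for counting error only) stand beside 59.1% of all protein-coding genes, so that the share itself was near the background. A peak overlapped the body of 6 members, against 65.0% of all protein-coding genes, and 9 members had a peak within 50000 bp, against 83.1%. The 6 genes with a body peak were not the same 6, since EMB had a body peak and no end peak and LDHD the reverse. The strongest end peaks spanned 4.58-fold to 12.3-fold enrichment over the caller's local background, where the 11744 coding genes with an end peak had a median of 5.66-fold (quartiles 4.42 and 7.19). Fold is an average over the length of a peak, which varied from 298 to 8146 bp among the 30 distinct peaks within 50000 bp of a member.

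**Figure D1:**
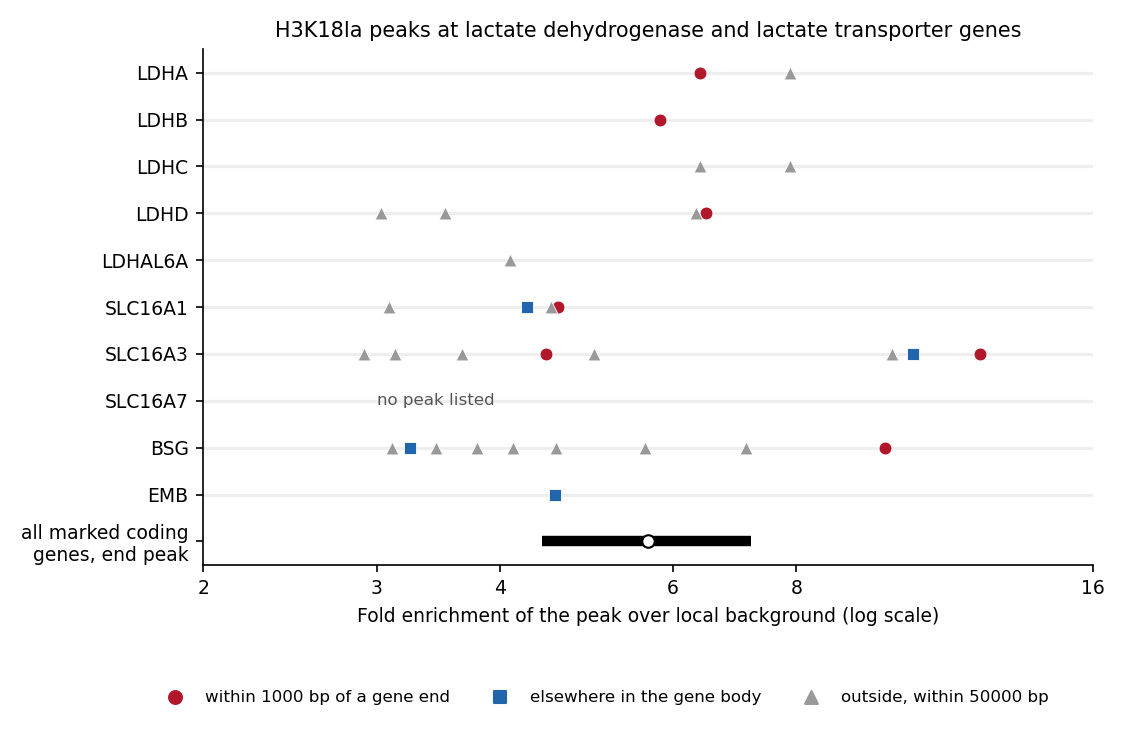
Fold enrichment (x axis, log scale) of every listed peak within 50000 bp of each gene (rows), with end peaks as circles, other body peaks as squares and outside peaks as triangles. The bottom row gives the median (open circle) and quartiles (bar) of the strongest end peak over the 11744 coding genes that had one. SLC16A3 (12.3-fold) and BSG (9.84-fold) lie right of that bar, SLC16A7 has no peak, and the 2 peaks of LDHC lie outside the gene.

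LDHA (NCBI gene 3939, chromosome 11, 18394563 to 18408425) had 1 peak of 2357 bp and 6.39-fold at its start (18393576 to 18395932, -log10 q 13.5). Its fold was above that of 63.2% of marked coding genes and its width above that of 83.3%, so that among them it ranked higher by width than by fold. Of all peaks, 81.0% had a lower fold than this peak. It ran from 987 bp upstream to 1369 bp downstream of the first start site. The second start site, 1788 bp further along, lay 419 bp beyond the edge of the peak. A second peak, of 2934 bp and 7.89-fold (18382443 to 18385376, -log10 q 20.7), ended 9187 bp before the gene. This upstream peak exceeded the start peak in fold and significance and lay at the end of no annotated gene of any type. No peak lay in the rest of the LDHA body.

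Both testis members of the cluster on chromosome 11 had no peak of their own. LDHC (NCBI gene 3948, 18412318 to 18452063) begins 3893 bp past the end of LDHA, and the nearest peak to it was the LDHA start peak, 16386 bp away. LDHAL6A (NCBI gene 160287, 18455856 to 18479601) begins 3793 bp past LDHC, and the nearest peak lay 46562 bp beyond its far end, at the start of the neighbouring gene TSG101 (4.1-fold). TSG101, which encodes a component of the endosomal sorting machinery, ends only 710 bp past LDHAL6A. A distance to the nearest peak as great as that of LDHC was found for 24.7% of coding genes and one as great as that of LDHAL6A for 17.2%. Both shares leave genes on chromosomes without a listed peak out of the count but not out of the total. On the other side of LDHA, GTF2H1, a subunit gene of transcription factor TFIIH, had a peak of 4.57-fold at its own start. LDHA, LDHC and LDHAL6A resemble each other in sequence, and how reads matching several copies were placed was not examined.

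**Figure D2:**
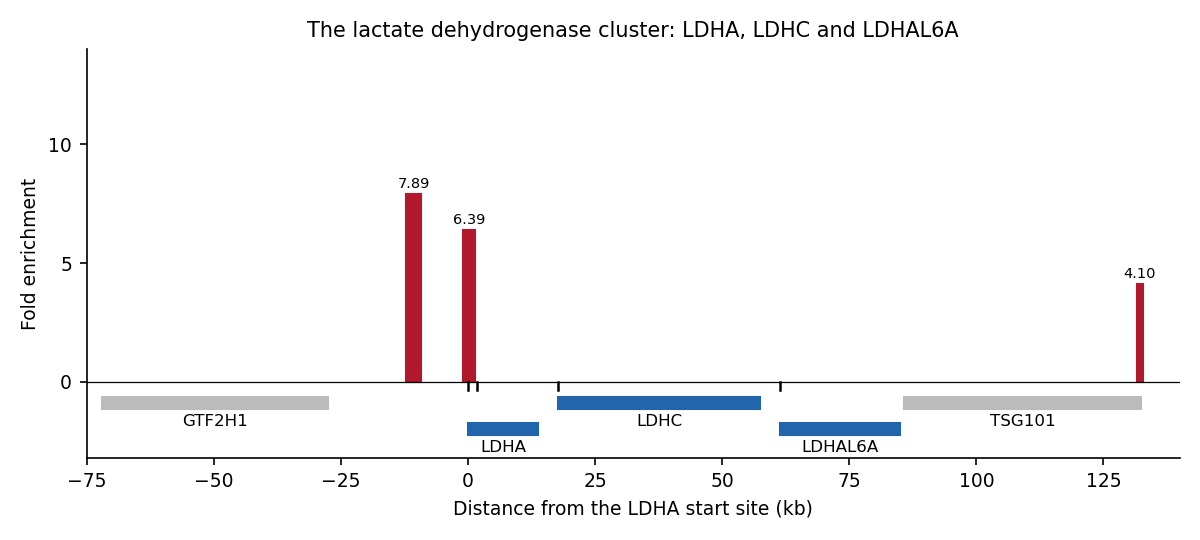
The chromosome 11 cluster, with distance from the LDHA start site in kb (x axis) and fold enrichment (y axis) of the peaks within 50000 bp of LDHA, LDHC or LDHAL6A (red bars, drawn to width). Blue boxes are the 3 members, grey boxes their coding neighbours, and black ticks the start sites. Peaks of 7.89-fold and 6.39-fold stand before and at the LDHA start, and none stands over LDHC or LDHAL6A.

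LDHB (NCBI gene 3945, chromosome 12, 21635342 to 21657842) lies on the minus strand and had a single peak, of 2093 bp and 5.82-fold, over its start (21656635 to 21658727, -log10 q 16.8). That fold was above that of 52.9% of marked coding genes. The peak ran from 885 bp upstream to 1207 bp downstream of the start site. Downstream bases made up 57.7% of it, near the 58.1% of the LDHA start peak, and the median over all covered start sites was 52.0% (quartiles 38.4 and 65.9). LDHA and LDHB encode the subunits that assemble into the common enzyme, and each had its only end peak over a start site. LDHB had no other peak within 50000 bp, and its coding neighbour GYS2, the liver glycogen synthase gene, had none at its ends.

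LDHD (NCBI gene 197257, chromosome 16, 75111864 to 75116780) was counted through a peak that did not reach it. The peak of 3714 bp and 6.48-fold (75108064 to 75111777, -log10 q 21.5) stopped 87 bp short of the gene, and 2931 bp of it lay in ZNRF1, a ubiquitin ligase gene whose 3′ end it covered. No peak overlapped the LDHD body. Another peak, 31666 bp beyond LDHD inside the zinc finger gene ZFP1, had a close fold (6.33) over only 554 bp, with a higher -log10 q of 32.2. The promoter table has no start site for LDHD, and which of its ends is the 5′ end was not assigned here.

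SLC16A3 (NCBI gene 9123, chromosome 17, 82217934 to 82240086) carried the strongest peaks of the group. The peak at its lower end, which is its 5′ end in the gene table, measured 8146 bp and 12.3-fold (82211996 to 82220141, -log10 q 66.5). It ranked 209 in fold among the 11744 marked coding genes, was wider than the end peak of 99.3% of them, and exceeded 99.2% of all peaks in fold. It covered 847 bp of the neighbouring gene CCDC57 at that gene's 5′ end, the whole interval between the genes, and 2208 bp of SLC16A3. A second wide peak, of 4545 bp and 10.5-fold (82227789 to 82232333, -log10 q 43.5), lay wholly inside the gene and does not count as an end peak. Its fold exceeded that of 97.7% of all peaks.

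The start sites of SLC16A3 in the promoter table fell in the inner peak, not in the outer one. All 5 lie on the plus strand between 10501 and 17840 bp inside the gene-table boundary, the first of them 8294 bp past the edge of the 12.3-fold peak. The inner peak covered the first 3 sites, and the other 2 lay 2566 and 3441 bp beyond its edge. It reached 646 bp upstream of the first site and only 101 bp downstream of the third. Among the 4045 coding genes with 2 or more start sites, 32.2% had some but not all of them covered, as did SLC16A3 and LDHA. A weaker peak of 1838 bp and 4.46-fold lay 581 bp past the 3′ end of SLC16A3, inside CSNK1D, a casein kinase gene that had a 10.0-fold peak at its upper end, 32442 bp past SLC16A3. A peak within 1000 bp of the 3′ end was found for 7.62% of coding genes with a known strand, and one at the 5′ end for 59.5%.

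BSG (NCBI gene 682, chromosome 19, 571283 to 583493) had a peak of 4025 bp and 9.84-fold over its start (569937 to 573961, -log10 q 42.1), which ranked 801 in fold among marked coding genes. Both start sites, 1313 bp apart, were inside it, with 1346 bp of the peak upstream of the first and 1365 bp downstream of the second. The peak also lay at an end of the antisense noncoding gene BSG-AS1. A weaker peak of 1803 bp and 3.24-fold followed at 574452 to 576254. Together they covered 36.7% of the BSG body, and only 2.92% of coding genes had more of their body covered, the median being 1.51%. The covered share was 30.5% for SLC16A3, 9.88% for LDHA, 5.37% for LDHB, 4.93% for SLC16A1 and 1.09% for EMB. A short gene reaches a high share more easily, and BSG is 12211 bp long.

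BSG had 9 peaks within 50000 bp and SLC16A3 had 8, more than 95.0% and 91.8% of coding genes, for which the median was 3 (quartiles 1 and 5). These counts moved with the settings: within 20000 bp they were 5 for BSG and 4 for SLC16A3, with a -log10 q of at least 5 they were 5 and 6, and among peaks over the median fold 4 and 5. Around BSG they included the starts of the ubiquitin-conjugating enzyme gene CDC34 (7.12-fold), the mitochondrial RNA polymerase gene POLRMT (5.62-fold) and the channel gene HCN2 (4.56-fold), whereas the granzyme gene GZMM had a peak only inside the gene (4.13-fold). LDHD and SLC16A1 had 4 peaks each, LDHA 2, and LDHB and EMB 1 each. The windows of LDHC and LDHAL6A held 2 peaks and 1 peak, all of them outside both genes.

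**Figure D3:**
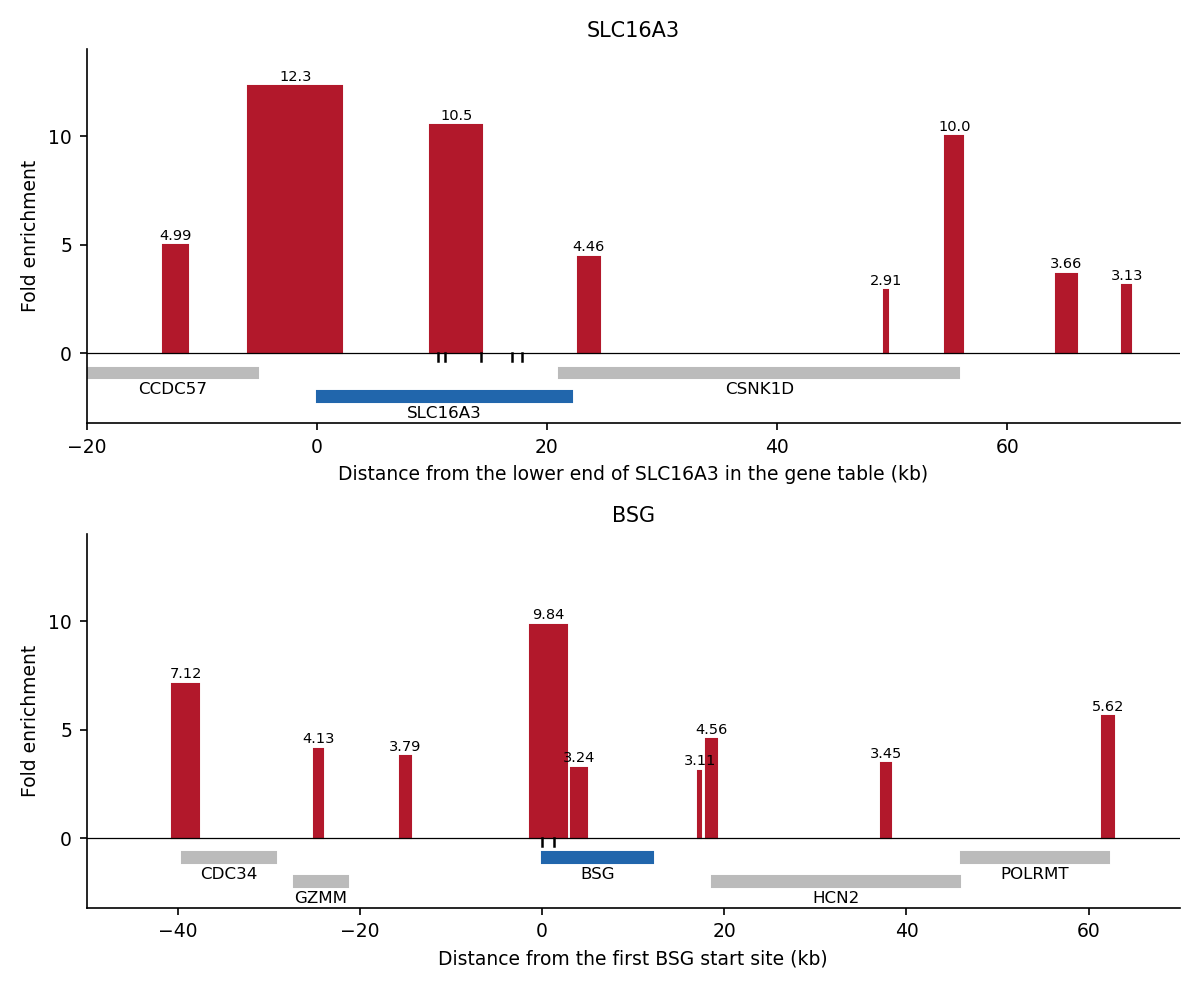
Peaks within 50000 bp of SLC16A3 (top) and BSG (bottom), with distance in kb on the x axis and fold enrichment on the y axis (red bars, drawn to width). Blue boxes are the named member, grey boxes coding neighbours, and black ticks start sites. The first 3 of the 5 SLC16A3 ticks stand under the 10.5-fold peak and none under the 12.3-fold peak, while both BSG ticks stand under the 9.84-fold peak.

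SLC16A1 (NCBI gene 6566, chromosome 1, 112911847 to 112956196), the most widely expressed lactate transporter gene, had a modest peak of 2662 bp and 4.58-fold at its upper end (112955582 to 112958243, -log10 q 10.5). Only 28.2% of marked coding genes had a lower fold, and SLC16A1 was the weakest of the 6 members with an end peak. The peak overlapped the gene by 615 bp and also lay at an end of the noncoding gene SLC16A1-AS1. A second peak of 1573 bp and 4.26-fold lay in the gene body, 19160 bp from that end. Outside the gene were peaks of 3.09-fold and of 4.51-fold, the stronger one at an end of the noncoding gene LOC105378911. EMB (NCBI gene 133418, chromosome 5, 50396192 to 50443345) had 1 peak of 516 bp and 4.55-fold (50440771 to 50441286, -log10 q 7.45), 2059 bp inside its upper end and therefore outside the 1000 bp window. The promoter table has no start site for SLC16A1 or EMB.

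SLC16A7 (NCBI gene 9194, chromosome 12, 59596029 to 59789841) stood in a long stretch without peaks in this list. The nearest listed peak ended 1169232 bp below the gene, and the next began 2469629 bp above it. This interval of 3.83 Mb held 3 protein-coding genes in the gene table, namely LRIG3, SLC16A7 and LOC100996696. Of the 28672 intervals between neighbouring peaks on a chromosome, 44 were at least as long and the median interval was 27411 bp. A nearest peak at least as far away as that of SLC16A7 was found for 151 coding genes (0.760%). That share is of all 19866 coding genes, of which 19821 had a listed peak on their chromosome. SLC16A7 is the longest member, at 193813 bp. Within 20000 bp there were 4 peaks around SLC16A3, 3 around SLC16A1 and 0 around SLC16A7, and within 100000 bp there were 14, 7 and 0 in the same order.

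Start sites allow a finer reading for the 7 members that have any in the promoter table. Peaks covered 7 of their 14 sites, against 49.0% of 22175 start sites of coding genes. By gene, LDHA, LDHB, SLC16A3 and BSG had at least 1 covered site, 4 of 7, against 53.3% of 15842 coding genes. The sites share genes and peaks and are not independent, since the 7 covered sites lie in 4 peaks. Over the whole genome, covered windows were richer in CpG dinucleotides than uncovered ones, with a median observed-over-expected ratio of 0.859 (quartiles 0.738 and 0.964) in covered and 0.403 (quartiles 0.201 and 0.749) in uncovered windows. The 7 covered member windows ranged from 0.401 at the third SLC16A3 site to 1.27 at the second BSG site.

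The member windows can be read against the share of start sites covered at like CpG ratios. At ratios of 0.75 and above, peaks covered 4 of 6 member sites, against 73.8% of 10740 start sites, and the uncovered ones were LDHC (0.991, higher than 88.2% of start sites) and the second LDHA site (0.983). Between 0.5 and 0.75 they covered 2 of 4 member sites, against 51.7% of 4186 start sites. LDHB (0.549) and the first SLC16A3 site (0.714) were the covered ones there, and LDHAL6A (0.677) and the first SLC16A7 site (0.747) were not covered. Between 0.25 and 0.5 they covered 1 of 3, the third SLC16A3 site (0.401), against 15.8% of 3376 start sites. The second SLC16A7 site (0.0974) was not covered, and below 0.25 peaks covered 6.4% of 3873 start sites. These counts of member sites are too small to set apart from the shares over all sites.

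**Figure D4:**
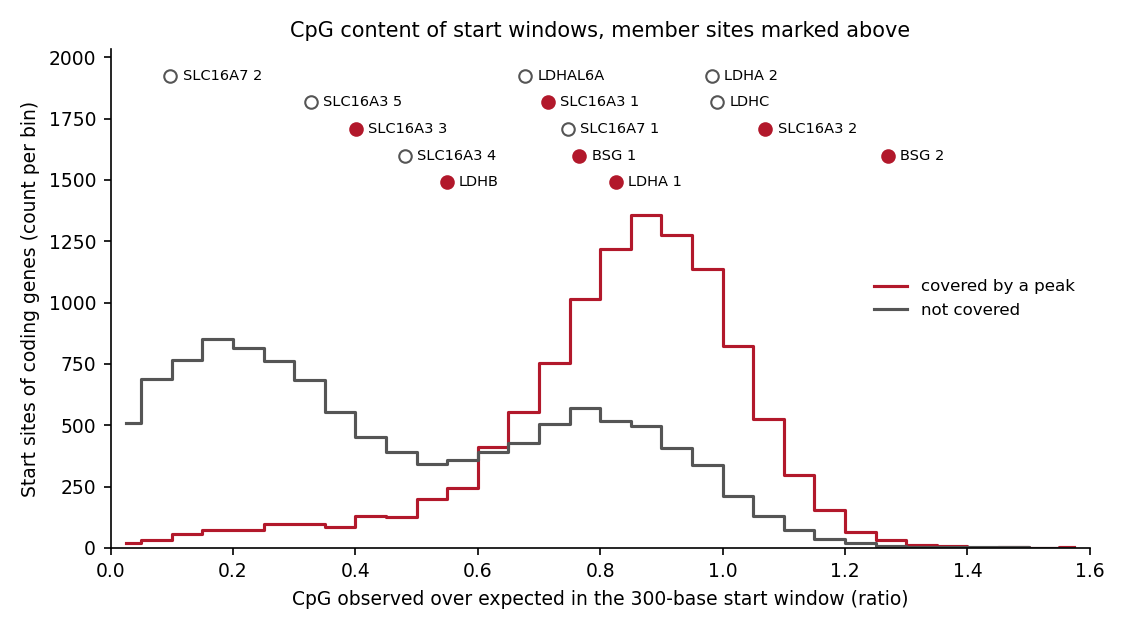
Number of coding-gene start sites per bin (y axis) by the CpG observed-over-expected ratio of the start window (x axis), for sites covered by a peak (red line) and not covered (grey line). Circles above the curves mark the 14 member sites at their own ratio, filled where covered, and their height carries no value. LDHC (0.991) and the second LDHA site (0.983) are open circles within the range of the red curve, and LDHB (0.549) is a filled circle left of most of it.

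The motif letters differed between the covered and uncovered LDHA windows. The first LDHA window held CACGTG beginning at -185 and -87 relative to the start site, a further ACGTG on the other strand at -73 and TGACGTCA at -51, and no GGGCGG. The second held GGGCGG at 4 places and none of the others. ACGTG was found in 23.0% of all 22175 windows, CACGTG in 8.34%, TGACGTCA in 2.26% and GGGCGG in 56.3%. In covered windows the shares were 27.1%, 10.3%, 3.05% and 75.3% in that order, each higher than in uncovered windows. The uncovered shares of ACGTG and CACGTG were 19.2% and 6.49%. For GGGCGG the LDHA pair was thus the reverse of the pattern over all windows. The second SLC16A3 window held ACGTG at -68 and -55 and GGGCGG at 3 places, and the second BSG window held CACGTG at -193 and GGGCGG at 3 places. LDHC held ACGTG at -13 and GGGCGG at -55 without a peak, and LDHB held CCAAT at -63 and GGGCGG on the other strand at -17 under one. Of the 14 member windows, ACGTG was in 4, CACGTG in 2, GGGCGG in 8, TATAAA in 2, and CCAAT and TGACGTCA in 1 each, and TGAGTCA was in none. The TATAAA matches began at -242 and, on the other strand, at -244 in LDHB. In the second BSG window the match began at -27 on the other strand. CCAAT was found in 34.7%, TATAAA in 9.47% and TGAGTCA in 4.0% of all windows. Each of these was less frequent in covered than in uncovered windows. The shares were 32.8% against 36.5% for CCAAT, 4.44% against 14.3% for TATAAA and 3.21% against 4.76% for TGAGTCA. The member windows with CCAAT or TATAAA were nonetheless all covered. All motif counts here are matches of letters and no evidence that a factor bound.

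Other genes of the same chemistry were read from lists of gene names, beside an end peak at 59.1% of all coding genes. Among the other 11 members of the SLC16 family, many of which carry substrates other than lactate, 6 had an end peak (54.5%, 23.4 to 83.3), with SLC16A6 at 9.05-fold, SLC16A13 at 7.65-fold and SLC16A5 at 7.10-fold. SLC16A4, SLC16A8 and SLC16A11 were among those without one, and SLC16A8 (MCT3) is the lactate exporter of the retinal pigment epithelium. Of 8 further lactate genes, 5 had an end peak (62.5%, 24.5 to 91.5). These included NPTN, which encodes neuroplastin, the third member of the basigin and embigin family (8.25-fold), and HAGH (5.04-fold) and GLO1 (4.78-fold), the glyoxalase genes whose pathway yields D-lactate. The lactate receptor gene HCAR1 had 4.12-fold, and the sodium-coupled transporter genes SLC5A8 and SLC5A12 and the testis gene LDHAL6B had none.

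The members' share of 60.0% was near the 59.1% of all coding genes, and lay between those of neighbouring steps of glucose metabolism. For pyruvate entry into mitochondria, 12 of 13 genes had an end peak (92.3%, 64.0 to 99.8), led by the pyruvate dehydrogenase phosphatase gene PDP1 (13.9-fold), the pyruvate carrier gene MPC2 (8.54-fold) and DLAT (7.64-fold), and PDK4 had none. From aldolase to pyruvate kinase it was 12 of 17 (70.6%, 44.0 to 89.7), led by ENO3 (13-fold, also at PFN1), GAPDH (11.9-fold, also at NCAPD2) and ALDOA (10.8-fold), with none at ALDOC and PGK2, among others. Among glucose transporters and hexokinases it was 8 of 19 (42.1%, 20.3 to 66.5), led by SLC2A6 (6.21-fold), SLC2A1 (5.94-fold) and SLC2A8 (5.74-fold), with none at SLC2A2, SLC2A5 and SLC2A7, among others. The median fold of the marked genes was 6.44 for the members, 5.60, 8.13 and 5.0 for these 3 lists in that order, and 5.66 for all coding genes. The intervals of these shares all overlap that of the members, which with 10 genes is too wide for the overlap to show that the shares are alike. No difference between lists was tested.

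Among all marked coding genes, the nearest to LDHA in fold, width, number of peaks within 50000 bp and covered body length were SHOX2 (6.39-fold, 2325 bp), CDCA7 (5.90-fold, 2423 bp) and PPP4R4 (5.89-fold, 2423 bp), each with 2 peaks nearby. The nearest to SLC16A3 were ARID1A (10.3-fold, 7707 bp, 8 peaks), AJUBA (11.0-fold, 6845 bp, 6 peaks) and MIDN (12.0-fold, 7290 bp, 12 peaks). Likeness was the Euclidean distance over the log2 values of these 4 measures in 1 library, among 11743 genes. The distances were 0.043 to 0.134 for LDHA and 0.427 to 0.564 for SLC16A3, and no other gene's nearest distances were computed. Of lung and epithelial genes, used to look at the label of the line, NKX2-1 had a weak end peak (3.90-fold) and SFTPB, CDH1 and EPCAM had none at their ends, whereas the keratin genes KRT8 and KRT18 shared a peak of 6.09-fold. SFTPC had 10.2-fold in a peak also at BMP1, NAPSA 4.87-fold and the mesenchymal gene VIM 8.09-fold. A peak list gives no expression and cannot settle the identity of a line.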

How the data were processed

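Only the peak list of the anti-H3K18la library was analysed. Per the submitters' processing notes, bcl2fastq 2.17, cutadapt 1.18, Trimmomatic 0.38, Bowtie2 2.3.4.1, Picard, MACS2 (2.1.2 and 2.1.0 are both listed), ChIPseeker and hg38 were used. The caller's settings are not given in the sources used here. The design text speaks of IgG and the sample labels of input, and which was the control was not settled. Peak names begin with NC, which no label explains. Each deposited fold is a linear ratio to the caller's local background, each deposited significance a -log10 p or -log10 q, and the deposited score, not used here, was -log10 q multiplied by 10 without its decimals for 99.98% of entries. The largest q was 0.0472.

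Peaks (1 bp or more of overlap) were matched to NCBI RefSeq genes of GRCh38, of which 718 of 59679 entries, out of order along their chromosome and taken for alternate or unlocalised sequences, were left out. Strand and start sites came from the RefSeq promoter table, which holds 7 of the 10 members and 15842 coding genes. The coding-gene windows all measured 300 bases. Python 3.11.15, pandas 2.3.3 and SciPy 1.17.1 were used. Counting of end peaks found 200 of 200 simulated peaks planted within the window of a gene end. It also equalled a direct count of the deposited peaks for 200 of 200 genes. Body and nearby counts were not part of this check. Genes were named by rule: all members, coding genes sharing or neighbouring their peaks, the 3 highest and up to 3 unmarked of each list, and the 3 nearest to LDHA and SLC16A3. LRIG3, HCAR1, NAPSA, NKX2-1, BMP1, PFN1, NCAPD2 and the noncoding genes were named after their values were seen. Members and lists were chosen with earlier results of these data known. Alternatives were other windows (500 and 3000 bp) and distances (20000 and 100000 bp), stricter overlap, a -log10 q of at least 5, and peaks above the median fold.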

Additional observations from a re-analysis of the deposited data

How the results depend on the processing

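The count of members with an end peak was 6 with windows of 500 bp, with a -log10 q of at least 5 and with a fold over the list's median of 4.36, 7 with a window of 3000 bp, where EMB was added, and 4 when the midpoint of the peak had to lie in the window, without LDHD and SLC16A3. The share of all coding genes was 57.7%, 52.4%, 45%, 62.4% and 54.8% under these rules in that order. The members' share lay above it with these windows and stricter peaks, and below it under the midpoint rule. Such counts of 10 genes are too small to set apart from the shares of all coding genes. The members' count was 3 when at least 50% of the peak had to lie in the window, without LDHD, SLC16A3 and BSG. Here 50% of the SLC16A3 and BSG peaks exceeds the window in length, and most of the LDHD peak lies outside it. The share of all coding genes was 53.9% under that last rule, against 59.1% as reported. The body count stayed at 6 under the 4 alternatives run for it, while the share of all coding genes was 51.0% (midpoint), 50.8% (at least 50% inside), 57.1% (-log10 q) and 49.7% (fold), against 65.0% as reported. The members' body count thus lay below that share as reported and above it under these alternatives. The interval of 6 in 10 genes (26.2% to 87.8%) includes all of these shares, so the count cannot be set apart from any of them. The nearby count was 8 or 9, beside 72.6% to 88.9% of all coding genes, LDHAL6A being lost within 20000 bp and with that fold limit. Strand, taken from the promoter table, was known for 7 members. Of these, 4 had a peak at the 5′ boundary in the gene table, against 59.5% of coding genes with a strand. At least 1 start site of the promoter table was covered in 4, against 53.3% of coding genes with a start site. For SLC16A3 these are different peaks, of 12.3-fold at the boundary and 10.5-fold at the start sites. Where a member kept an end peak, the fold of its strongest one was the same in all 31 cases. Each fold is a deposited value that no alternative recomputed, so this sameness says little about robustness. The number of nearby peaks moved by over 1.5 times in 18 cases. In the other 42 it moved by 1.5 times or less or did not change. Motif counts had no alternative. No paired analysis was possible because each group holds 1 library. Of the 30 peaks near members, 9 had a -log10 q under 5. The depth of the libraries is unknown, so a gene without a peak has none in this list and is not shown to lack the mark.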
